A study of Mus musculus with 2 samples.

Results

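The 38 genes described here encode the working parts of the lysosome: its acid hydrolases and their activators, proteins of its limiting membrane, subunits of the proton pump V-ATPase and the transcription factor TFEB. They were chosen by name and, like the related gene lists below, with earlier results of these data known. All 38 symbols were found among the 34745 Ensembl genes listed for each of 2 RNA sequencing libraries. One library was labelled Kdm2b-/- (the knockout-labelled library below) and the other wild type (the wild-type-labelled library). Both came from peritoneal macrophages of C57BL/6 mice, harvested 4 days after thioglycollate, an irritant broth that recruits macrophages to the peritoneum, and both were treated with lipopolysaccharide (LPS) at 100 ng/ml, for 4 h according to the sample characteristics or 3 h according to the treatment protocol. With 1 library per genotype there were no replicates, so the spread between animals is unknown, and no untreated cells were used here. The labels do not give how the Kdm2b allele was made, the age or sex of the mice, or how many mice went into each library.

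The lysosome breaks down material that reaches it by phagocytosis, endocytosis and autophagy, a task that elicited macrophages perform at a high rate. Its hydrolases work at acid pH, which the V-ATPase maintains by pumping protons with the energy of ATP hydrolysis. Most soluble hydrolases are tagged with mannose 6-phosphate in the Golgi and carried to the lysosome by mannose 6-phosphate receptors. TFEB and its relatives switch on many of these genes together by binding E-box sequences of the type called CLEAR in their promoters.

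Levels are given in FPKM, fragment numbers scaled to transcript length and to the size of the library, and can be compared between genes because they are per length. The knockout-labelled library rested on an estimated 26807000 fragments and the wild-type-labelled library on 27271800. Ratios are of the knockout-labelled library over the wild-type-labelled library, as log2 of FPKM + 1, which understates differences of low genes. A gene counted as higher or lower when it was at least 1.5-fold apart on this scale, a log2 ratio of 0.58 in size (a rule of size, not a test). The floor for a gene was a mean of 1 FPKM across the libraries.

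Kdm2b itself was not lower in the knockout-labelled library, at 0.326 FPKM, against 0.205 FPKM in the wild-type-labelled library, so the directions given describe the label and not a verified genotype. The macrophage markers Lyz2, Cd14, Csf1r and Adgre1 were present in both libraries. Of 10 macrophage markers, 8 passed the floor, with a sum over all 10 of 14209 FPKM in the knockout-labelled library and 11924 FPKM in the wild-type-labelled library. Lyz2 alone gave 11409 and 8945 FPKM of these sums, and the other 9 markers summed to 2800 FPKM in the knockout-labelled library and 2978 FPKM in the wild-type-labelled library. Of 6 B cell markers 2 passed it (sums 2.86 and 27.3 FPKM), of 8 mesothelial and stromal markers all 8 (sums 364 and 318 FPKM), of 6 neutrophil markers 1, and of 5 T and NK cell markers 0. Of the stromal markers, 3 collagen genes were over 2-fold higher: Col1a1 at 15.98 FPKM in the knockout-labelled library and 3.63 FPKM in the wild-type-labelled library (log2 ratio 1.87), Col1a2 at 24.2 and 9.67 FPKM (1.24) and Col3a1 at 22.9 and 9.54 FPKM (1.18). Of the same 8 markers, 2 were below 0: Msln at 2.77 and 4.32 FPKM (-0.50) and Krt19 at 12.9 and 16.2 FPKM (-0.31). The decorin gene Dcn, which held most of that list's sum, was at 251 and 248 FPKM. The part of other cell types in the lysosomal values was not tested. The libraries also differed in Xist, which is transcribed from an inactive X chromosome (0.00398 FPKM in the knockout-labelled library and 8.55 FPKM in the wild-type-labelled library), and in the Y-linked gene Ddx3y (5.72 FPKM, and listed at 0 in the wild-type-labelled library). Another Y-linked gene, Eif2s3y, was at 10.2 FPKM in the knockout-labelled library and at 0 in the other. The knockout-labelled library thus carried the transcripts of male mice and the wild-type-labelled library those of female mice. Sex and label cannot be told apart in any ratio given here.

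The lysosomal genes stood close together in the 2 libraries. None of the 38 was 1.5-fold apart in either direction on the FPKM + 1 scale, where 7.5% of the 9038 genes past the floor were (4.7% higher and 2.8% lower), or 7.01% of the 4750 genes whose mean reached 5 FPKM. Of the 6568 genes past the floor in the members' length range, 298 were higher and 126 lower. For 38 genes a count of 0 beside these shares is no result about the set. The count of 0 rests on the scaling: Atp6v0d2 passed the rule as lower (-0.66) when the knockout-labelled library was scaled to a median log2 ratio of 0, and Atp6v0d2 (-0.67) and Acp5 (-0.59) passed it with equal upper quartiles. Over all genes past the floor, 225 were higher and 386 lower with the median scaling, and 209 and 398 with equal upper quartiles. The members' log2 ratios as deposited ran from -0.53 for Atp6v0d2, a V-ATPase subunit gene, to 0.46 for Npc1, a lysosomal cholesterol transporter gene. Of the 38, 24 were above 0 and 14 below; of the 36 past the floor 22 were above 0, 61.1%, against 63.2% of all genes past it. With the median scaling 15 of the 36 were above 0 and with equal upper quartiles 13. These scalings moved all genes the same way, to a median of -0.0016 and -0.0127 over all genes past the floor. The 36 past the floor had a median of 0.06, against 0.10 for all genes past it, and 23 of the 36 lay within 0.2 of 0, against 47.2% of all genes. Both genes under the floor, Tfeb and Sgsh, were above 0. Without the added 1 FPKM, 3 members were at least 1.5-fold apart, all of them low: Tfeb, Sgsh and Idua. The share of all genes on that scale was not counted. With 0.1 FPKM added, 896 of the 9038 genes past the floor were higher and 358 lower. Of the 36 members past it, 0 were higher and 1 (Idua) lower. Together the 38 genes held 2.40% of the FPKM sum in the knockout-labelled library and 2.13% in the wild-type-labelled library. Their sums were 9044 and 8572 FPKM, of which Psap alone gave 3894 and 3446 FPKM. The sums over all genes were 376746 FPKM in the knockout-labelled library and 402003 FPKM in the wild-type-labelled library.

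The 95% counting interval of the ratio without a pseudocount, which covers counting error only, lay wholly within 1.5-fold in both directions for 34 of the 38, against 64.7% of all genes past the floor. Such intervals narrow with more fragments, and 28 of the 38 reached 10 FPKM in both libraries. Only 4750 of the 9038 genes past the floor had a mean of 5 FPKM. Genes of like level were not compared, so these shares do not show that the members were steadier than other genes. The interval excluded a log2 ratio of 0 for 28 of the members, 17 higher and 11 lower, but this held for 63.3% of all genes past the floor too. With the shortest protein-coding transcript in place of the longest, a choice made after the data were seen, 31 intervals lay within 1.5-fold and 24 excluded 0.

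**Figure D1:**
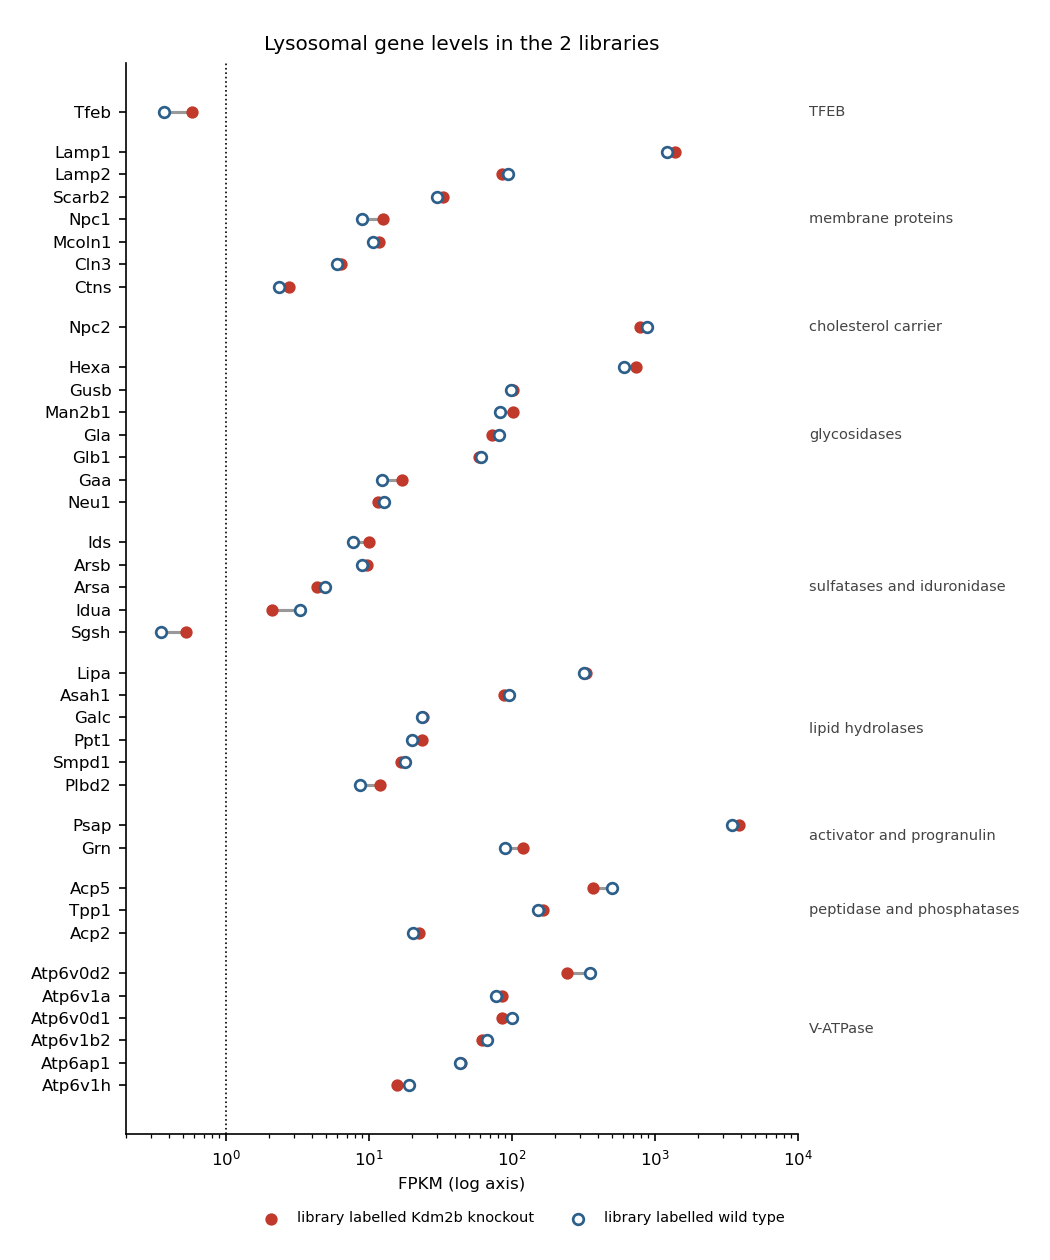
FPKM of each of the 38 genes (log axis) in the knockout-labelled library (filled) and the wild-type-labelled library (open), grouped by role; the dotted line is 1 FPKM. Levels ran from under 1 FPKM for Tfeb and Sgsh to 3894 and 3446 FPKM for Psap, and each pair of points lay close together.

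The genes differed far more from each other than between the libraries. Psap was the most abundant, rank 11 of all genes in the knockout-labelled library and rank 15 in the wild-type-labelled library. Lamp1 (ranks 37 and 54), Npc2 (ranks 72 and 76) and Hexa (ranks 79 and 99) also stood among the 100 most abundant genes of both libraries. In all, 28 members reached 10 FPKM in both libraries and 8 reached 100 FPKM in both.

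TFEB, the transcription factor of the lysosomal gene network, stood at a low transcript level. Tfeb stood at 0.583 FPKM in the knockout-labelled library and 0.370 FPKM in the wild-type-labelled library, about 37 and 24 fragments. The counting interval of its log2 ratio ran from -0.13 to 1.47, so a difference was not detectable at this depth. Of its relatives, Mitf stood higher in level, at 10.9 and 8.52 FPKM (log2 ratio 0.32), and Tfe3 at 2.23 and 1.54 FPKM (0.35). Tfec, a family member expressed mainly in myeloid cells, was at 7.90 FPKM in the knockout-labelled library against 11.6 FPKM in the wild-type-labelled library (-0.50). The family thus lay on both sides of 0, and each of these is under the 1.5-fold rule.

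The membrane proteins had 6 of 7 members above 0, against 63.2% of all genes past the floor, with a median log2 ratio of 0.14. With equal upper quartiles Cln3 was below 0 (-0.04), and Scarb2 (0.0017) and Mcoln1 (0.0049) were at about 0. Lamp1, the most abundant glycoprotein of the limiting membrane among them, was at 1389 FPKM in the knockout-labelled library and 1213 FPKM in the wild-type-labelled library (0.20). Its paralog Lamp2, which also serves autophagosome fusion and chaperone-mediated autophagy, was far less abundant and the only one of the 7 below 0, at 85.5 and 93.1 FPKM (-0.12). Lamp1 therefore exceeded Lamp2 by 16.2-fold in the knockout-labelled library and by 13.0-fold in the wild-type-labelled library. Scarb2, which encodes the receptor LIMP-2 that brings glucocerebrosidase to the lysosome, was at 32.8 and 29.7 FPKM (0.14). Mcoln1, the calcium channel mucolipin, was at 11.8 and 10.6 FPKM (0.13). Cln3, whose human counterpart is mutated in juvenile Batten disease, was at 6.37 and 5.96 FPKM (0.08). Ctns, the cystine exporter that is lost in human cystinosis, was the lowest of the group in level, at 2.78 and 2.34 FPKM (0.18).

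The 2 genes of Niemann-Pick type C cholesterol export lay on opposite sides of 0. Npc1 (ENSMUSG00000024413, chromosome 18, 12189692 to 12236400 in GRCm38), the membrane transporter, had the highest ratio of all members past the floor. It was at 12.6 FPKM in the knockout-labelled library and 8.95 FPKM in the wild-type-labelled library, about 1950 and 1404 fragments, with a log2 ratio of 0.46 and a counting interval from 0.40 to 0.60. Npc2, the soluble carrier that hands cholesterol to NPC1, was at 781 and 875 FPKM (-0.16). Npc2 was 61.8-fold above Npc1 in level in the knockout-labelled library and 97.8-fold above it in the wild-type-labelled library. Npc1 overlaps Rmc1 on the other strand, a gene at 1.73 and 1.98 FPKM, and no strand marking is described for these libraries.

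**Figure D2:**
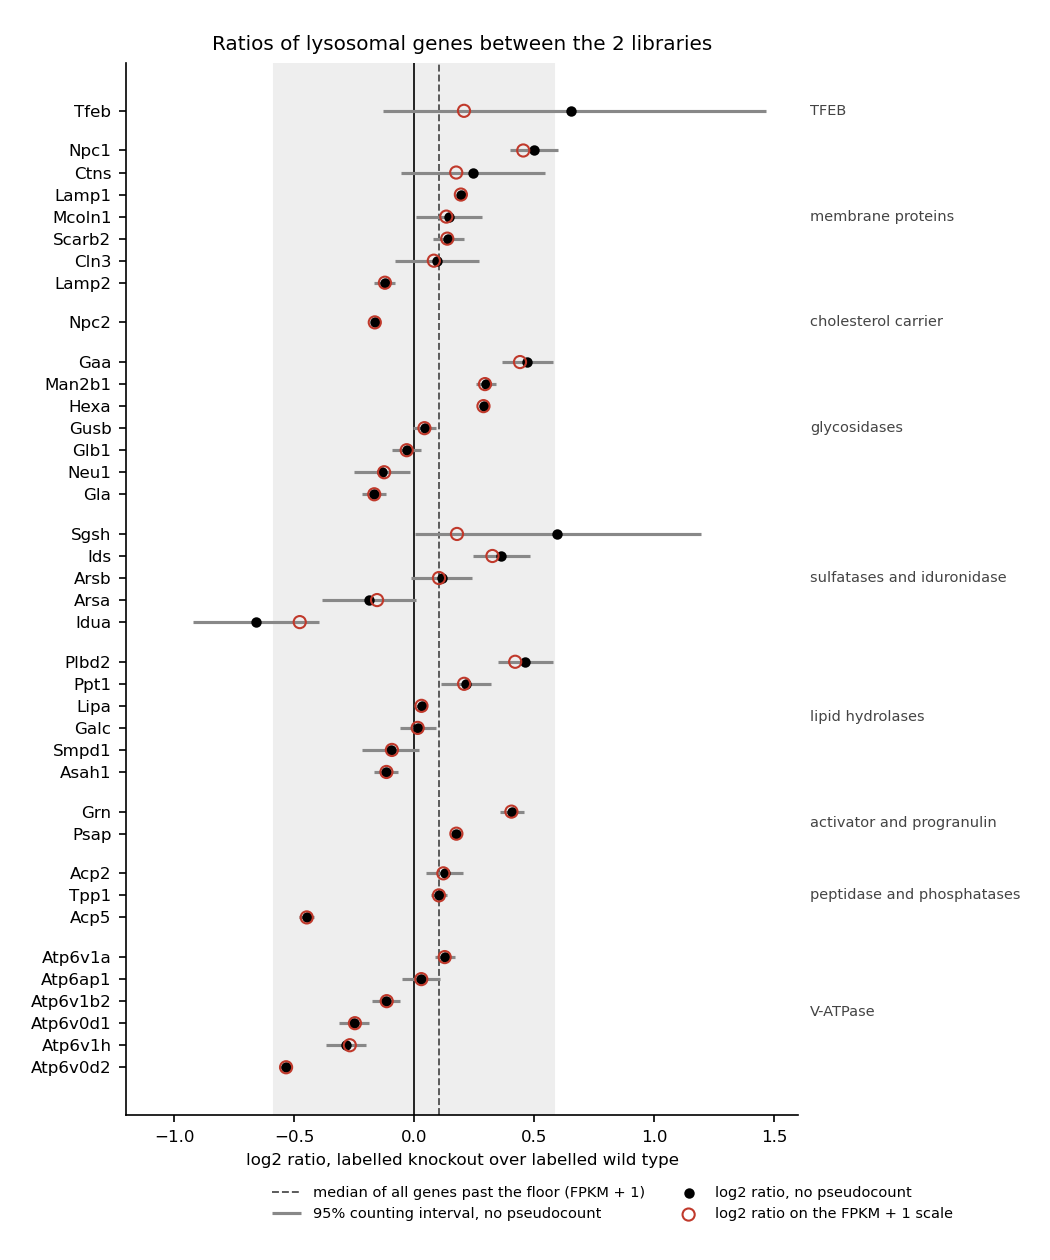
Log2 ratio of the knockout-labelled library over the wild-type-labelled library for each gene, without a pseudocount (filled, with its 95% counting interval) and as FPKM + 1 (open). The grey band is 1.5-fold either way and the dashed line the median of all genes past the floor, 0.10; every open point lies inside the band, with Atp6v0d2 nearest its lower edge.

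Among the 7 glycosidases, which strip sugars from glycoproteins, glycolipids and glycogen, 4 were above 0 and 3 below (median log2 ratio 0.04). Gaa (ENSMUSG00000025579, chromosome 11, 119267887 to 119285454), the acid glucosidase that degrades glycogen and is deficient in human Pompe disease, had the second highest ratio of the members past the floor. It was at 17.1 FPKM in the knockout-labelled library and 12.4 FPKM in the wild-type-labelled library, about 1669 and 1224 fragments (log2 ratio 0.44, counting interval 0.36 to 0.58). Man2b1, lysosomal alpha-mannosidase, was at 102 and 82.5 FPKM (0.30). Hexa, the alpha chain of beta-hexosaminidase and the gene of human Tay-Sachs disease, was the most abundant glycosidase gene, at 737 and 602 FPKM (0.29). The remaining 4 lay nearer to 0. Gusb, beta-glucuronidase, was at 102 and 98.5 FPKM (0.04), and Glb1, beta-galactosidase, at 59.3 and 60.5 FPKM (-0.03). Neu1, the sialidase, was at 11.6 and 12.7 FPKM (-0.12). Gla, the alpha-galactosidase deficient in human Fabry disease, was at 72.3 and 81.3 FPKM (-0.17). Glb1 overlaps Tmppe on the same strand (1.64 and 1.10 FPKM), so its value is uncertain by that amount.

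The enzymes that degrade glycosaminoglycans and sulfatides all stood under 10 FPKM in both libraries. Idua (ENSMUSG00000033540, chromosome 5, 108660331 to 108684557), alpha-iduronidase, the enzyme missing in human Hurler syndrome, had the second lowest ratio on the FPKM + 1 scale. Without the pseudocount Idua had the lowest ratio of the members, at -0.66. It was at 2.10 FPKM in the knockout-labelled library and 3.32 FPKM in the wild-type-labelled library, about 199 and 320 fragments (log2 ratio -0.48, counting interval without a pseudocount -0.92 to -0.40). It overlaps Dgkq (0.577 and 0.382 FPKM) and Slc26a1 (listed at 0 in both libraries) on the other strand. Ids, iduronate sulfatase, which acts just before it in the same pathway, was on the other side of 0, at 9.93 and 7.71 FPKM (0.33). Arsb was at 9.70 and 8.95 FPKM (0.10) and Arsa, which degrades sulfatide, at 4.32 and 4.92 FPKM (-0.15). Sgsh, heparan N-sulfatase, stayed under the floor at 0.528 and 0.350 FPKM, about 62 and 42 fragments.

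The lipid hydrolases had a median log2 ratio of 0.02, with 4 of 6 above 0. Lipa, lysosomal acid lipase, which frees cholesterol and fatty acids from lipoproteins, was the most abundant at 328 FPKM in the knockout-labelled library and 321 FPKM in the wild-type-labelled library (0.03). Asah1, acid ceramidase, was at 88.1 and 95.5 FPKM (-0.11), and Smpd1, acid sphingomyelinase, at 16.8 and 18.0 FPKM (-0.09). Both act on successive steps of sphingomyelin breakdown. Galc, which removes galactose from galactosylceramide, was at 23.7 and 23.4 FPKM (0.02). Ppt1, a thioesterase that takes palmitate off proteins, was at 23.4 and 20.1 FPKM (0.21). Plbd2 (ENSMUSG00000029598, chromosome 5, 120483282 to 120503625), a lysosomal protein of the phospholipase B family, had the third highest ratio of the members past the floor. It was at 11.9 and 8.62 FPKM, about 1475 and 1088 fragments (0.42, counting interval 0.35 to 0.58).

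Psap and Grn encode precursors that are cut into small active proteins, and both were above 0. Psap, whose product prosaposin yields the saposins that present sphingolipids to their hydrolases, was at 3894 FPKM in the knockout-labelled library and 3446 FPKM in the wild-type-labelled library (log2 ratio 0.18). Grn, progranulin, which binds prosaposin and travels with it to the lysosome, was at 120 and 89.9 FPKM (0.41). Psap transcripts outnumbered those of Grn by 32.6-fold and 38.3-fold per length.

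Of the peptidase and the acid phosphatases, Tpp1, tripeptidyl peptidase, was at 164 FPKM in the knockout-labelled library and 153 FPKM in the wild-type-labelled library (log2 ratio 0.10), and Acp2, lysosomal acid phosphatase, at 22.3 and 20.4 FPKM (0.12). Acp5 (ENSMUSG00000001348, chromosome 9, 22126727 to 22135711), the tartrate-resistant acid phosphatase known from osteoclasts and activated macrophages, lay apart from them. It was at 367 and 500 FPKM, about 14223 and 19737 fragments (-0.45, counting interval -0.48 to -0.42). This was the third lowest ratio of the members, and past 1.5-fold with equal upper quartiles.

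The V-ATPase had 4 of its 6 members below 0 and a median log2 ratio of -0.18, against 0.10 for the 30 other members past the floor. Atp6v0d2 (ENSMUSG00000028238, chromosome 4, 19876841 to 19922605), the d subunit form found in osteoclasts and macrophages, had the lowest ratio of all 38 genes on the FPKM + 1 scale. It was at 244 FPKM in the knockout-labelled library and 354 FPKM in the wild-type-labelled library, about 16627 and 24505 fragments (log2 ratio -0.53, counting interval -0.56 to -0.51). Atp6v0d1, the widely expressed form of the same subunit, was at 84.7 and 101 FPKM (-0.25). The d2 form made up 74.3% of the summed d subunit FPKM in the knockout-labelled library and 77.9% in the wild-type-labelled library. In the cytosolic V1 sector, Atp6v1h, the H subunit that couples it to the membrane sector, was at 15.8 and 19.2 FPKM (-0.27). Atp6v1b2, a nucleotide-binding B subunit, was at 61.5 and 66.6 FPKM (-0.11). The catalytic A subunit gene Atp6v1a was above 0, at 85.0 and 77.7 FPKM (0.13), and Atp6ap1, an assembly factor of the membrane sector, was at 44.2 and 43.3 FPKM (0.03). Scaling the knockout-labelled library by 0.907, to equal upper quartiles, put Atp6v1a and Atp6ap1 below 0 too and Atp6v0d2 past 1.5-fold.

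The other subunits of the pump showed the same side. Of 19 further V-ATPase genes, 12 passed the floor, of which 10 were below 0 and 2 above, with a median of -0.23; 0 of the 12 were 1.5-fold apart. Over members and further subunits together, 14 of 18 were below 0, against 36.8% of all genes past the floor, and 16 of 18 lay below the median of all genes. The proton-carrying c subunit gene Atp6v0c was at 79.4 FPKM in the knockout-labelled library and 106 FPKM in the wild-type-labelled library (-0.41), and Atp6v0b, a related subunit gene, at 73.6 and 98.0 FPKM (-0.41). Atp6v1f, the F subunit gene, was at 257 and 324 FPKM (-0.33). Tcirg1, the a3 form of the subunit that lines the proton path, went the other way at 83.3 and 65.3 FPKM (0.35). It made up 91.8% of the a subunit FPKM in the knockout-labelled library and 89.4% in the wild-type-labelled library. The forms Atp6v1b1, Atp6v1c2, Atp6v1e2 and Atp6v1g3, known from kidney, testis or other tissues, were listed at 0 in both libraries. The median of the 18 stayed below 0 in every scaling, pseudocount and floor tried, between -0.35 and -0.12.

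**Figure D3:**
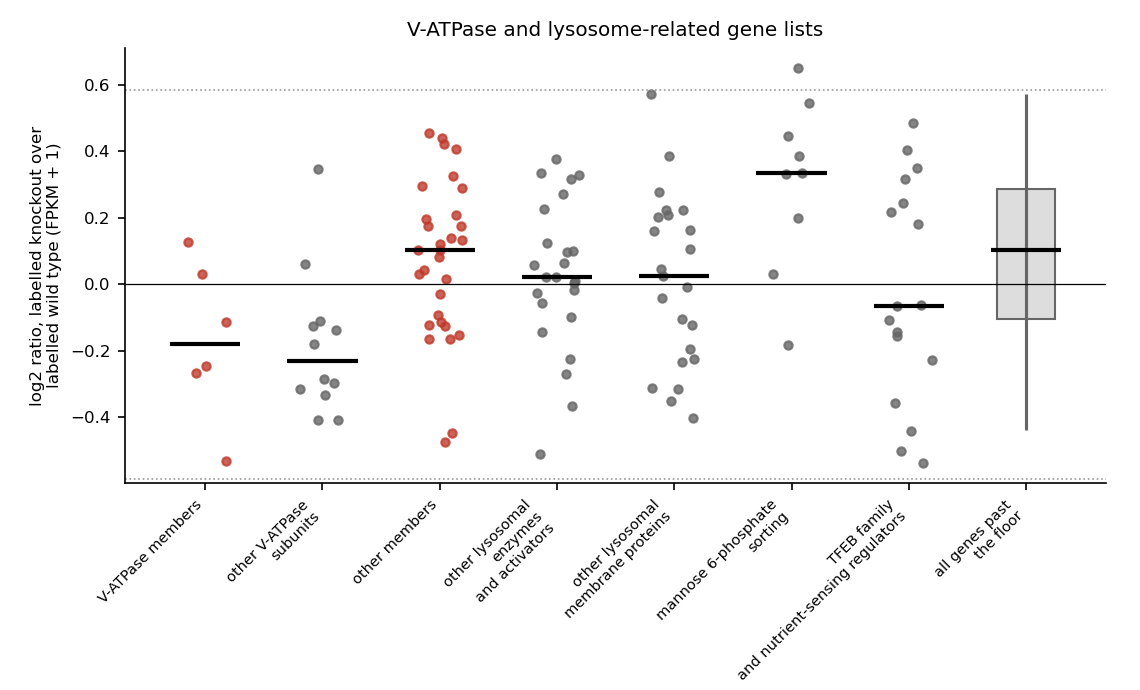
Log2 ratios (FPKM + 1) of the V-ATPase members, the other V-ATPase subunits, the remaining members and 4 related lists, with the median of each as a bar; for all genes past the floor the box spans the 25th to the 75th percentile and its whisker the 5th to the 95th, and dotted lines mark 1.5-fold. The V-ATPase medians, -0.18 and -0.23, lie below 0, and that of mannose 6-phosphate sorting, 0.33, above the median of all genes, 0.10.

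The log2 ratio went with transcript length across the libraries, and several V-ATPase transcripts are short. The median was -0.23 in the shortest 10% of the genes past the floor and 0.29 in the longest 10%. With the trend in length and GC content removed, the median of the V-ATPase members was -0.11 and that of the other subunits -0.16, against 0.10 for all genes. Atp6v1f, at a log2 ratio of -0.33 as deposited, was at 0.00 after this step, Atp6v0d2 at -0.40, Acp5 at -0.29 and Idua at -0.57. At the upper end Npc1 was at 0.33, Gaa at 0.26 and Plbd2 at 0.22, while Grn stood at 0.40.

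**Figure D4:**
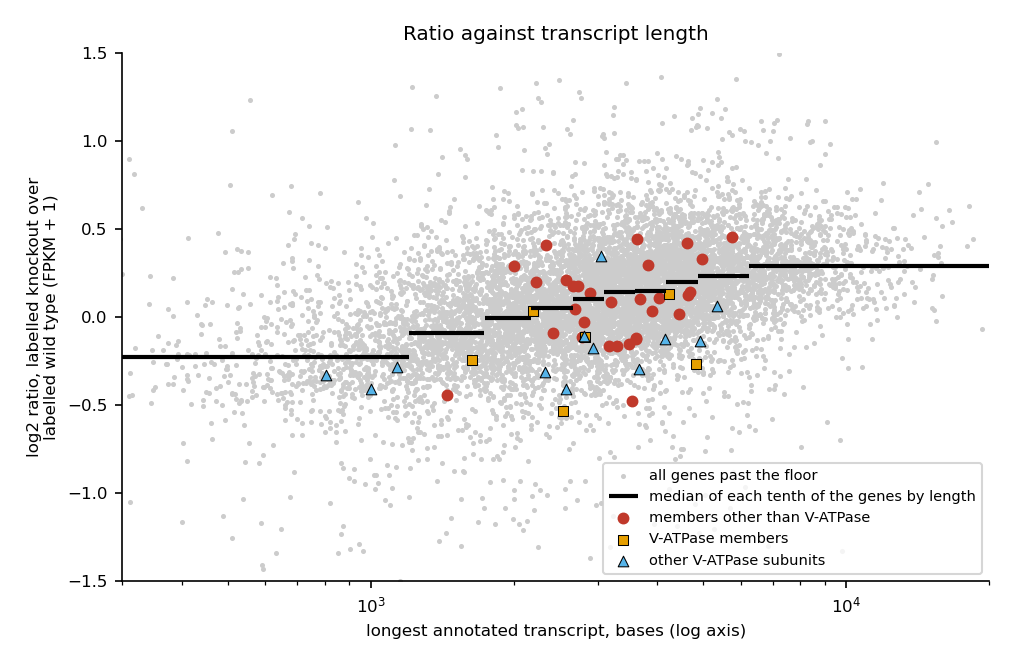
Log2 ratio (FPKM + 1) against the longest annotated transcript (log axis) for 9022 genes past the floor (grey; 70 lie outside the frame), with the median of each 10% of the genes by length as bars. The members lie in the middle of the length range, and 17 of the 18 V-ATPase genes lie under the bar of their own length, as do 24 of the 36 members past the floor.

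Acp5 and Atp6v0d2 are both known as osteoclast genes, and other genes of that list did not all go with them. Of 7 osteoclast genes outside the set, 4 passed the floor, 2 above 0 and 2 below; the 7 summed to 414 FPKM in the knockout-labelled library and 552 FPKM in the wild-type-labelled library. Ctsk, the collagen-degrading cathepsin K, was at 408 and 546 FPKM (-0.42), and Dcstamp, a fusion protein gene, at 1.01 and 3.13 FPKM (-1.04). Nfatc1, the transcription factor of osteoclast formation, was at 1.81 and 1.11 FPKM (0.41), and Mmp9 at 2.83 and 1.54 FPKM (0.59). The defining markers Calcr, Ocstamp and Oscar were at or near 0 in both libraries, with at most about 6 fragments. Of 10 genes of alternatively activated macrophages, 7 passed the floor, 6 of them were below 0, and 4 were at least 1.5-fold lower, against 2.8% of all genes. These 4 were Retnla at 0.499 FPKM in the knockout-labelled library and 9.99 FPKM in the wild-type-labelled library (-2.87), Ccl17 at 2.98 and 14.6 FPKM (-1.97), Arg1, arginase, at 5.56 and 13.5 FPKM (-1.14), and Ccl22 at 14.6 and 29.2 FPKM (-0.95). The part of either list in the values of Acp5 and Atp6v0d2 was not tested.

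The genes that carry hydrolases to the lysosome lay mostly above 0. Of 9 genes of mannose 6-phosphate tagging and sorting, 8 were above 0, against 63.2% of all genes past the floor, with a median log2 ratio of 0.33. At least 1.5-fold higher was 1 of the 9, against 4.7% of all genes, which for 9 genes is no result about the list. That gene was Nagpa, which uncovers the mannose 6-phosphate tag, at 9.07 FPKM in the knockout-labelled library and 5.41 FPKM in the wild-type-labelled library (0.65). Gnptab, which adds the tag, was at 10.1 and 6.63 FPKM (0.55). The sorting receptor Sort1 was at 4.71 and 3.18 FPKM (0.45) and Igf2r, the large mannose 6-phosphate receptor, at 27.1 and 20.5 FPKM (0.39). These transcripts are long, with a median of 4848 bases against 3092 for all genes past the floor, and after removal of the length and GC trend their median was 0.20.

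Lysosomal genes outside the set also lay on both sides of 0. Of 24 further enzymes and activators, 15 were above 0 and 9 below (median 0.02), and 0 were 1.5-fold apart. Gm2a, the activator that presents GM2 ganglioside to beta-hexosaminidase, was at 111 FPKM in the knockout-labelled library and 158 FPKM in the wild-type-labelled library (-0.51), opposite in sign to its partner Hexa. Naglu was at 29.3 and 38.1 FPKM (-0.37) and Manba at 3.77 and 2.78 FPKM (0.34). Of 25 further membrane proteins 23 passed the floor, 12 above 0 and 11 below (median 0.03). Among these, the nucleoside transporter gene Slc29a3 was at 12.6 and 8.14 FPKM (0.57) and the tetraspanin gene Cd63 at 1303 and 1723 FPKM (-0.40). Laptm5 was at 105 and 79.8 FPKM (0.39) and Laptm4b at 12.9 and 16.7 FPKM (-0.35). Of 20 TFEB relatives and nutrient-sensing regulators 17 passed, 7 above 0 and 10 below (median -0.07), with the scaffold genes Lamtor3 at 9.35 and 14.0 FPKM (-0.54) and Lamtor5 at 63.1 and 86.1 FPKM (-0.44), and Fnip2, a partner of folliculin, at 3.95 and 2.54 FPKM (0.48). The median of all 97 genes of these lists, 85 of them past the floor, was 0.01.

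Of the members, 4 lie on the X chromosome. Gla and Lamp2 were below 0, and Ids and Atp6ap1 above, with a median of -0.05 over the 4 genes. The part of the difference in Xist in these values was not tested, and sex and label cannot be told apart for these or the other members.

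E-boxes of the CLEAR type were looked for in the members' promoters, on RefSeq promoter windows of GRCm38.p6 (250 bases before to 50 after a start site, available for 32 members). The E-box CACGTG, which reads the same on both strands, was found in 10 of the 32 members, 31.2%, against 8.09% of 27025 genes. The longer TCACGTG, on either strand, contains CACGTG and was found in the same 10 members, against 4.29% of all genes. The 27025 genes were not limited to those past the floor. Past it, 9 members held TCACGTG and 21 did not, beside 526 and 6468 of all genes. Whole windows are shown for the most abundant members, Psap and Lamp1, as planned. The Lamp1 window held 4 matches, more than that of any other member. It spans chr8:13158911-13159210 on the plus strand, and capitals mark TCACGTG or its reverse complement, which begin or end with the E-boxes 61, 45, 28 and 15 bases upstream of the start site.
Lamp1: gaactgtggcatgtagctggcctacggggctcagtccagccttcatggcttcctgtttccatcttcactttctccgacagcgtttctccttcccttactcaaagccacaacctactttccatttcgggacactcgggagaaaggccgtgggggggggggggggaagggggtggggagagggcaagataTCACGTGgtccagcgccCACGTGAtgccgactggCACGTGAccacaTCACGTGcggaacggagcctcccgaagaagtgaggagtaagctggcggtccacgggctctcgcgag

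Psap, the most abundant member, held none in the window at its first start site, chr10:60277378-60277677 on the plus strand.
Psap: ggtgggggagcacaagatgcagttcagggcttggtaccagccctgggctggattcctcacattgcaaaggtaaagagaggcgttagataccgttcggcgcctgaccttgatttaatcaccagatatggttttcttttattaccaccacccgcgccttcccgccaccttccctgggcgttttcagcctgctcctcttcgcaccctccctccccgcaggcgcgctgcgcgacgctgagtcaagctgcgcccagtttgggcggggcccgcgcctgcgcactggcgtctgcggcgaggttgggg

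The matches in the other 9 members are shown as windows of 26 bases on the gene's own strand, with the same capitals, to let the flanking bases be compared. The matches of Atp6v0d1, Atp6v1a and Gla, and those nearer the start site in Cln3 and Mcoln1, read TCACGTGA, in which the longer motif lies on both strands at once.
Arsa, chr15:89477425-89477450, minus strand: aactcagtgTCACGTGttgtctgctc
Atp6v0d1, chr8:105566052-105566077, minus strand: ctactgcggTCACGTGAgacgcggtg
Atp6v1a, chr16:44139375-44139400, minus strand: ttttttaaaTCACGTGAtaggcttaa
Cln3, chr7:126583370-126583395, minus strand: aaccctcaagCACGTGAtggaaggct
Cln3, chr7:126583342-126583367, minus strand: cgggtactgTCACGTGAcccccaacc
Gaa, chr11:119267813-119267838, plus strand: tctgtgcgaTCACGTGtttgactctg
Gla, chrX:134601217-134601242, minus strand: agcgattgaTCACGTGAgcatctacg
Gla, chrX:134601184-134601209, minus strand: agatctcggTCACGTGAgcaactctc
Glb1, chr9:114401020-114401045, plus strand: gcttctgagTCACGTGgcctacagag
Mcoln1, chr8:3500438-3500463, plus strand: tcgcgcttgTCACGTGttcagttcag
Mcoln1, chr8:3500464-3500489, plus strand: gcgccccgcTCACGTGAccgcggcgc
Sgsh, chr11:119355524-119355549, minus strand: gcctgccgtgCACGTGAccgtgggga

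Among members with a window, the ratios with and without these letters overlapped. Npc1, Asah1, Plbd2, Atp6v0d2, Atp6v1b2 and Atp6v1h had no window and are left out. They include the highest ratio past the floor (Npc1, 0.46) and the lowest (Atp6v0d2, -0.53). The 9 members past the floor with TCACGTG had a median log2 ratio of 0.08 and ran from -0.25 (Atp6v0d1) to 0.44 (Gaa); the 21 without it had a median of 0.10. Over all genes past the floor with a window, the 526 with the motif had a median of 0.12 and the 6468 without it 0.11.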

How the data were processed

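Polyadenylated RNA of 2 libraries was fragmented, copied with random primers and sequenced from both ends, per the labels' protocols. The authors deposited 1 FPKM value per Ensembl gene and library, per the file headers. HISAT2 2.0.4, StringTie 1.3.0 and edgeR, and the builds GRCm38.p4 and mm10, are listed in the submitters' processing notes, without roles, annotation release or filters. Because FPKM is scaled by length and library size, a few abundant genes or a difference in fragmentation can move all values.

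Symbols, coordinates and transcript lengths came from GENCODE M21 (GRCm38), which named 34344 of 34745 IDs. FPKM times length of genes with 1 transcript fell on whole multiples of 1 step, within 0.02 of a fragment, for 92.5% of 1513 low genes in the knockout-labelled library and 92.2% of 1461 in the wild-type-labelled library; fragments were estimated with these steps and the longest transcript. Exact Clopper-Pearson 95% intervals of the ratio leave out every error but counting (reads copied by PCR are not independent) and widen with a shorter transcript. With 1 library per group no test was run and no p-value is given. The intervals and calls were tested on simulated data, with no outcome reported here. Calculations used Python 3.11.15, scipy 1.17.1 and pandas 2.3.3.

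The members and the gene lists were chosen with earlier results of these data known. Every member is named; fragments and intervals are given for the 3 highest and 3 lowest ratios past the floor (0 members reached 1.5-fold), and each related list is shown by at most 4 genes, those farthest from 0; 1 such gene is not reported here. Tfeb and Sgsh fragments, the TFEB relatives Mitf and Tfe3, the defining cell type markers, Dcn, the macrophage sum without Lyz2, Xist, Ddx3y, overlapping genes, the ratios between genes and the subunit shares were added after the values were seen. So were Msln, Krt19, Eif2s3y, the all-gene counts in the members' length range and the motif counts past the floor. Alternatives covered pseudocounts, scalings, floors, the fold, the length and GC trend and protein-coding genes only. The planned protein sequences of Atp6v0d1 and Atp6v0d2 are not used here.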

Additional observations from a re-analysis of the deposited data

How the results depend on the processing

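No paired analysis was possible because each group had 1 library, and for the same reason no replicate could be left out. The count of members at least 1.5-fold higher stayed at 0 in all 10 alternatives. The count at least 1.5-fold lower was 1 with a pseudocount of 0.1 FPKM (Idua), 1 with the knockout-labelled library scaled by 0.915 to a median log2 ratio of 0 (Atp6v0d2) and 2 with equal upper quartiles (Atp6v0d2 and Acp5), and 0 in the others. The members' median was -0.06 with the median scaling and -0.07 with equal upper quartiles, against 0.06 as reported, and 0.15 with equal FPKM totals, so its sign rests on the scaling. The related lists' median, 0.01 as reported, was -0.12 with the median scaling and -0.13 with equal upper quartiles. Of the 38 members, 27 kept their sign in every setting, 14 above 0 and 13 below; the median scaling turned 7 of the others, equal upper quartiles 9, equal totals 1 (Glb1) and removing the length and GC trend 1 (Sgsh). Over all genes, 425 were higher and 253 lower by 1.5-fold as reported. These counts were 896 higher with a pseudocount of 0.1, 94 and 127 with 5, 225 and 386 with the median scaling, 209 and 398 with equal upper quartiles, 674 higher with equal totals, 189 and 144 at a floor of 5 FPKM, and 78 and 92 at 2-fold. The median of the mannose 6-phosphate list ran from 0.20 to 0.42 and that of the other V-ATPase subunits from -0.37 to -0.14. The absence of replicates limits every ratio; the counting intervals were widest for Tfeb, Sgsh, Ctns and Idua, and those of Tfeb and Ctns included 0.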
